A study of Mus musculus with 3 samples.

Results

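The AP-1 family genes Fos, Fosb, Fosl1, Fosl2, Jun, Junb, Jund and Atf3 were examined for trimethylation of histone H3 at lysine 4 (H3K4me3) in mouse granulosa cells around ovulation. All 8 genes were found in the annotation, among 21887 protein-coding genes. For each gene the peaks that lay in it or within 5 kb of either end were taken from the deposited lists, which gave 19 peaks before hCG (0 h), 19 at 4 h and 18 at 12 h, of 22236, 23662 and 20669 peaks in all. H3K4me3 marks promoters and the first stretch of active genes, and was measured by chromatin immunoprecipitation with an H3K4me3 antibody and sequencing. The cells came from wild type C57BL/6 females at postnatal day 21 to 28. All groups had been given 4 IU of eCG, a gonadotropin that makes follicles grow. The 4 h and 12 h groups then received 5 IU of hCG, which acts on the LH receptor and triggers ovulation, and the 0 h group was taken before it. Ovaries were collected and the follicles punctured to release the granulosa cells. There was 1 library per time, so no difference below has a replicate check or a test. How many mice each library pools is not stated in the labels.

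AP-1 is a dimeric transcription factor of the basic leucine zipper class. Fos proteins cannot pair with each other and bind DNA only as partners of a Jun protein, while Jun proteins also pair among themselves. Many of these genes are immediate early genes, transcribed within minutes of a signal without new protein synthesis. In rat granulosa cells the LH surge is known to induce several of them, and Fosl2 and Jund proteins persist in luteal cells.

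The peak lists carry positions and no height or read depth, so the measure used was covered bp, the length in base pairs covered by peaks in the gene and 5 kb around it. It describes breadth and not the strength of the mark. Depth is unknown. The peaks covered 8.87, 10.12 and 8.93 Mb at 0 h, 4 h and 12 h, and the narrowest peak of each list had 136, 139 and 152 bp. The 4 h and 0 h libraries ran in lane 4 and the 12 h library in lane 5, per the labels, so time and lane cannot be told apart for 12 h. The peak names of the 12 h list also lack a tag (nolambda, a background setting) that those of the other lists carry, and whether its peaks were called differently is unknown. Of 10 granulosa markers 7, 8 and 7 had a peak at 0 h, 4 h and 12 h, with 9400, 7234 and 4549 covered bp in sum, and Amh had none at any time. Of 5 endothelial markers 0, 2 and 1 had a peak, with 0, 517 and 164 bp. Of 6 theca and stroma markers 0, 1 and 1 had a peak (0, 139 and 192 bp), and of 5 immune markers 1, 2 and 1 (838, 1668 and 891 bp). The oocyte marker Gdf9 had a peak at each time, the other 4 oocyte markers had none, and 0 of 4 epithelial markers had one. Marker values count all peaks in the gene and 5 kb around it, and peaks of neighbouring genes were not set apart. The part of other cells in the results below was not tested.

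Junb and Fosl1 had far more covered bp after hCG than before it, and the other 6 genes were marked at all 3 times. Every one of the 8 genes had a peak in its window at each time, where 56.3%, 58.3% and 56.2% of all protein-coding genes did at 0 h, 4 h and 12 h. The 0 h count was 7 in 5 of 7 other settings, without Fosl1 in 3 of them, since its only 0 h peak lay at a neighbouring gene, and without Junb in the 2 that drop narrow peaks. A change was called at a fold of 2 in covered bp after subtracting the median log2 ratio of all genes covered at both times, or where a peak was present at one time alone. At 4 h over 0 h, 2 of 8 members (Junb and Fosl1) were called with more covered bp, where 10.6% of the 13075 genes with a peak at either time were. None of the 8 had less, where 5.81% of all genes did. In the comparison of 12 h over 4 h, 0 of 8 had more and 0 had less, where 5.58% and 10.2% of all genes did. For 12 h over 0 h the same 2 genes had more, where 9.24% of all genes did, and 0 had less, where 9.09% did. With 8 members, such counts are too small to set the family apart from other genes. The median centred log2 ratio of the members was 0.19 at 4 h over 0 h, 0.06 at 12 h over 4 h and 0.05 at 12 h over 0 h, where it is 0 for all genes by construction.

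**Figure D1:**
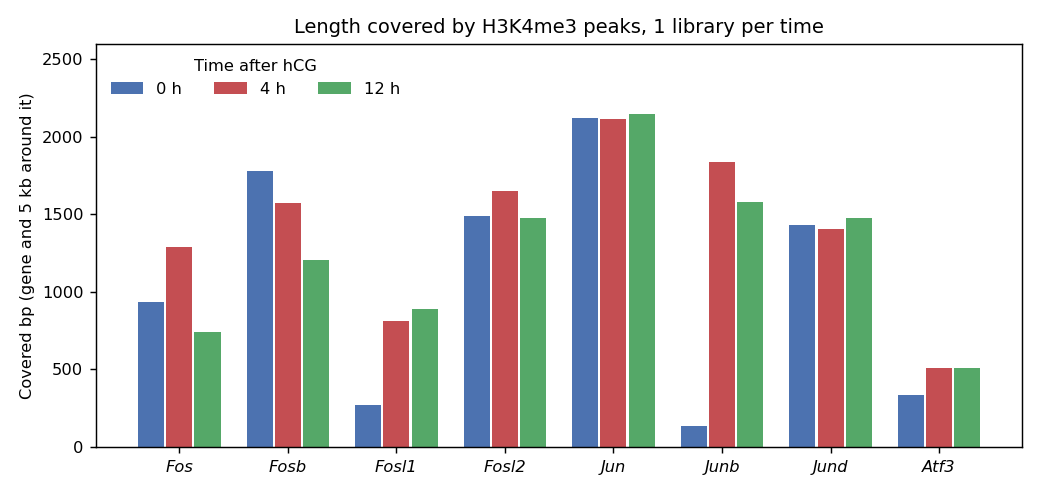
Covered bp (vertical axis, in base pairs, gene and 5 kb around it) of each member in the 0 h, 4 h and 12 h libraries, 1 bar per library. Junb has 136, 1839 and 1579 bp and Fosl1 269, 810 and 892 bp, while Jun stays between 2119 and 2145 bp.

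Together the members had 8499 covered bp at 0 h, 11204 at 4 h and 10032 at 12 h. Without Junb and Fosl1 the sums were 8094, 8555 and 7561 bp. The median member had 1183.5, 1491.5 and 1342.5 bp, where the median gene with a peak had 852, 916 and 845 bp. The order of the genes changed with time. At 0 h Jun had the most and Junb the least. At 4 h Jun still led, with Junb next and Atf3 last.

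Sequences of 4 promoters are given here, for Junb, which had the largest change, and, as promoters of members without a called change, for Jun, Fos and Atf3, which held a match to a motif searched for upstream of the start. Each is the 250 bases before the annotated start on the gene's own strand, from RefSeq on GRCm38.p6, the assembly of mm10. Capitals mark matches to the motifs searched for.
Junb (chr8:84978749-84978998, minus strand): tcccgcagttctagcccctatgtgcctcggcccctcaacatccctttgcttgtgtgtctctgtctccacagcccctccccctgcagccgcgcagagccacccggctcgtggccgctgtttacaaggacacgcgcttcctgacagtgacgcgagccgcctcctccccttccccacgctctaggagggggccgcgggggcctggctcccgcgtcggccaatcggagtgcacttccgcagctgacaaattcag
Fos (chr12:85473640-85473889, plus strand): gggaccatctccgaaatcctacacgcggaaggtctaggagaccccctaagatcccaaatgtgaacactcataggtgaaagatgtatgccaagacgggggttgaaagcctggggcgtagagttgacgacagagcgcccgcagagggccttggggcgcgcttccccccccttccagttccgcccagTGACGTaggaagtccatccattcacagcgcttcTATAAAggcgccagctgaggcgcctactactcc
Jun (chr4:95052223-95052472, minus strand): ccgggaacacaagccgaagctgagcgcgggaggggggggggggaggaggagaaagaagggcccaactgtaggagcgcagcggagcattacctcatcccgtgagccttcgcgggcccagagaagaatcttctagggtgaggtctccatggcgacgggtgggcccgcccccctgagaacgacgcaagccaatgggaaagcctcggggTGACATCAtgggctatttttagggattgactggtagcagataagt
Atf3 (chr1:191183334-191183583, minus strand): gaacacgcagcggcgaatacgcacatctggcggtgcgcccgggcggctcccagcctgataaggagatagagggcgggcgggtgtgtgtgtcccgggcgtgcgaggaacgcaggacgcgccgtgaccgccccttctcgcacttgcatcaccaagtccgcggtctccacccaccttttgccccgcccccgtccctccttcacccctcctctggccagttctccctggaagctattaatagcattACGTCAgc

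Promoter sequences were matched for 7 members, all but Fosl1, and the motifs were searched for from 250 bases before to 50 after each start. The letters TGACGT, the core of the cyclic AMP response element, were searched for on both strands and lay 66 to 61 bases before the start of Fos and, on the opposite strand, 8 to 3 bases before that of Atf3. They occur in 8.49% of 21263 promoter windows of protein-coding genes. The full palindrome TGACGTCA, which contains TGACGT, was in 0 of the 7 and in 2.23% of all windows. TGANTCA, a looser form of the AP-1 site with any base allowed in the middle, was in 0 of the 7 and in 6.99% of all windows. TGACATCA, a variant AP-1 site known from the Jun promoter, was found 45 to 38 bases before the start of Jun and is in 3.66% of all windows. TATAAA, searched for on the gene's strand, lay 33 to 28 bases before the start of Fos and covered the first 6 bases after that of Junb, and is in 8.26% of all windows. The CArG box of serum response factor was in 0 of the 7 windows and in 1.52% of all. Sites more than 250 bases upstream were not searched for, so a motif absent here may lie farther out. These matches are descriptions of the letters alone.

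None of the 250-base stretches printed above was covered by a peak, which does not show that the mark was absent. In all 7 members with an annotated start, 0 bp upstream of the start were covered within 250 bases at each time. Of genes with 1 annotated start and a peak near it, 70.8%, 68.3% and 73.1% also had 0 bp there at 0 h, 4 h and 12 h. Farther upstream, Jun had a peak at each time and Fos at 0 h and 4 h. On the downstream side the first peak began 50 to 88 bp from the start in Jun, 65 to 243 bp in Fos, 137 to 233 bp in Fosb, 142 to 184 bp in Atf3 and 314 to 927 bp in Fosl2 over the 3 libraries. In Jund it began 1337 to 1351 bp from it. Junb had its first edge 141 bp downstream in the 4 h library and 170 bp in the 12 h library, against 1310 bp in the 0 h library.

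**Figure D2:**
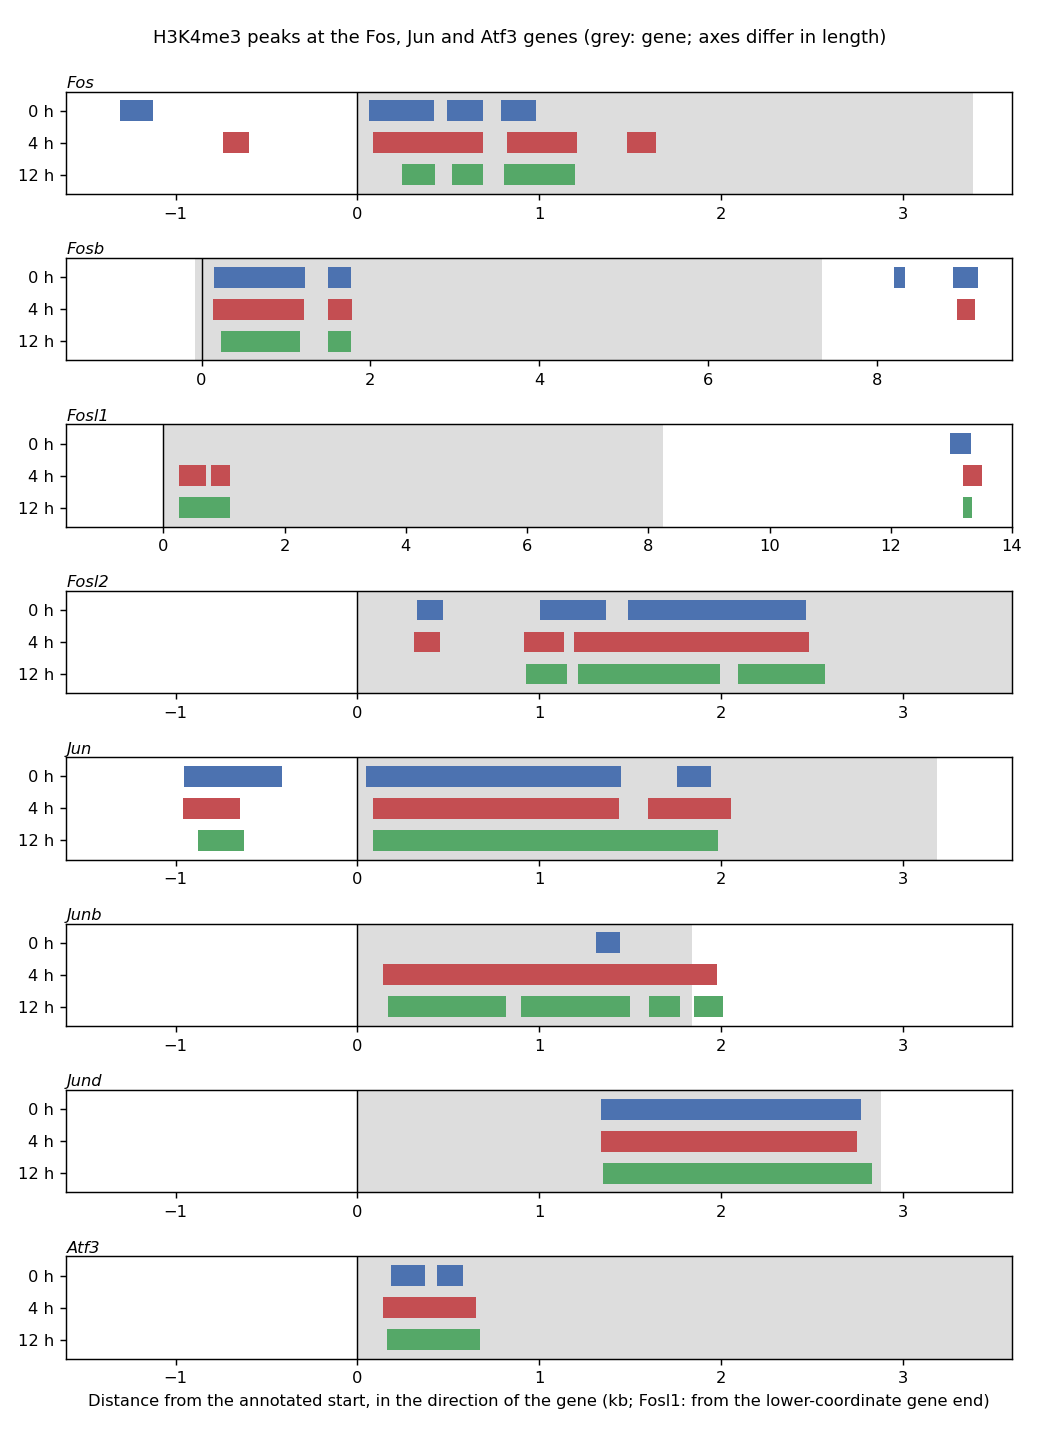
Peaks of the 0 h, 4 h and 12 h libraries (rows) at each member, against the distance from the annotated start in kb along the gene (Fosl1: from the gene end with the lower coordinate), with the gene in grey and the axes cut to the marked stretch. Junb has a narrow peak at 0 h and peaks over most of the gene at 4 h and 12 h, Fosl1 has peaks inside the gene at 4 h and 12 h alone, and the Jund peak has nearly the same edges at all 3 times.

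Among the Jun genes, whose proteins pair with Fos proteins and with each other, Junb changed most. Junb (chr8:84976909-84978748, gene ID 16477, minus strand, 1840 bp and without introns) encodes a Jun protein that activates more weakly than Jun and can oppose it. At 0 h it had 1 peak of 136 bp, at chr8:84977303-84977438, which is the narrowest width in that library. At 4 h a continuous peak of 1839 bp lay at chr8:84976769-84978607, and it covered 92.3% of the gene. At 12 h the same stretch held 4 peaks of 645, 600, 173 and 161 bp, which covered 77.1% of the gene.

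The covered bp of Junb was thus 1839 at 4 h, against 136 at 0 h, a ratio of 13.5 (centred log2 ratio 3.64). That was rank 2 from the top among 12004 genes covered at both times. At 12 h it was 1579, against 136 at 0 h, a ratio of 11.6 (centred log2 3.56, rank 4 of 11729), and against 1839 at 4 h (centred log2 -0.08). The size of the first and second ratios rests on a 0 h peak at the width floor. With a window of 10 kb in place of 5 kb they were 1.17 and 0.88 on the centred log2 scale, and the second was no longer called. That wider window held 1352, 3303 and 2444 covered bp at 0 h, 4 h and 12 h. Which genes the added peaks belong to was not looked up. With a window of 2 kb the first and second ratios were 3.64 and 3.56 on the centred log2 scale. The ratio was smaller outside the 5 kb window. From 5 to 50 kb outside the gene the peaks covered 2688 bp at 4 h and 2506 bp at 12 h, against 1987 bp at 0 h.

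Jun (chr4:95049036-95052222, gene ID 16476, minus strand, 3187 bp) encodes the founding Jun protein and had 2125, 2119 and 2145 covered bp at 0 h, 4 h and 12 h. These values exceeded those of 98.3%, 96.7% and 98.3% of genes with a peak. Its total breadth was level over time while its parts shifted. Inside the gene the covered bp was 1584, 1808 and 1893. Leaving out bp within 1 kb of another gene gave 728, 990 and 1075 bp. This also dropped part of the covered bp inside Jun itself, so these values describe only the rest of the gene. The centred log2 ratio then was 0.34 at 4 h over 0 h and 0.57 at 12 h over 0 h. In the whole window it was -0.12 and 0.03. The main peak had 1398 bp at 0 h and 1353 at 4 h, beside a second peak of 186 and 455 bp further into the gene. At 12 h both were replaced by a peak of 1893 bp at chr4:95050242-95052134. A separate peak upstream of the start had 541, 311 and 252 bp at 0 h, 4 h and 12 h, narrower at each later time. It lay between -957 and -414 bp from the start of Jun, inside Junos, an antisense long noncoding RNA gene that begins beside Jun. With only peak positions, a mark of Jun and a mark of Junos cannot be told apart there. The main peak at 0 h and 4 h and the 1893 bp peak at 12 h also came within 1 kb of Junos. No peak was found from 5 to 50 kb outside the gene in any library.

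Jund (chr8:70697739-70700616, gene ID 16478, plus strand, 2878 bp), the most broadly expressed Jun gene, had 1 peak in each library, of 1435 bp at 0 h, 1406 at 4 h and 1479 at 12 h. Its edges moved little. The peak began 1337, 1340 and 1351 bp downstream of the annotated start and ended at 2771, 2745 and 2829 bp. The annotated start may be that of a longer transcript, which was not tested, so distances from it, and the absence of peaks just upstream of it, are uncertain for Jund. The end of the peak lay within 1 kb of the neighbouring gene Iqcn. The bases covered at all 3 times made up 93.4% of those covered at any time, more than in 99.4% of the 11607 genes with a peak at all 3 times.

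Among the Fos genes, whose proteins need a Jun partner, Fosl1 changed most. Fosl1 (chr19:5447698-5455938, gene ID 14283, 8241 bp) encodes Fra-1, which lacks the strong activation domain of Fos. Its window held 269, 810 and 892 covered bp at 0 h, 4 h and 12 h, and part of this lies at the start of the neighbouring gene Fibp. In the gene itself 0 bp were covered at 0 h, 766 at 4 h and 834 at 12 h. The 4 h peaks, of 447 and 319 bp, began 259 bp from the gene end with the lower coordinate, and at 12 h a continuous peak of 834 bp at chr19:5447956-5448789 took their place. The whole value at 0 h belonged to a peak of 351 bp near Fibp, of which the window took in 269 bp. The later peaks near Fibp measured 311 bp (4 h) and 153 bp (12 h). For the window as a whole the centred log2 ratio was 1.47 at 4 h over 0 h and 1.75 at 12 h over 0 h, and both ratios understate a change within the gene, where 0 h had no peak.

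Fos (chr12:85473890-85477274, gene ID 14281, plus strand, 3385 bp), the textbook immediate early gene, had 932 covered bp at 0 h, 1291 at 4 h and 740 at 12 h, most at 4 h. Its peaks lay in the first part of the gene. At 0 h there were 3 peaks inside it, of 355, 201 and 195 bp. At 4 h the first and second were replaced by a peak of 602 bp, beside peaks of 383 and 163 bp, and the covered part of the gene was 33.9%, against 22.2% at 0 h. At 12 h peaks of 182, 172 and 386 bp covered 21.9% of it. The centred log2 ratio was 0.35 at 4 h over 0 h and -0.66 at 12 h over 4 h, both short of the fold of 2. With peaks within 1 kb joined both passed it, at 1.06 and -1.22, and with narrow peaks left out the second did, at -1.22. Joining counts the gaps between peaks as covered, which gave 1099, 2383 and 951 bp at 0 h, 4 h and 12 h. At 4 h it took in the unmarked stretch over the start, up to an upstream peak of 143 bp. The upstream peak at 0 h lay more than 1 kb from the next and was not joined. Upstream of the start Fos had a peak of 181 bp at 0 h and another of 143 bp at 4 h, which did not overlap, and none at 12 h.

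Fosb (chr7:19302696-19310118, gene ID 14282, minus strand, 7423 bp), a close relative of Fos with a strong activation domain, differed from it in order. It held 1781, 1577 and 1206 covered bp at 0 h, 4 h and 12 h, less at each later time. Part of this lay outside the gene. Beyond its far end, near the long noncoding RNA gene Gm26802, peaks of 295 and 138 bp were present at 0 h, a peak of 214 bp was left at 4 h, and none was found at 12 h. Inside the gene the covered bp was 1348, 1363 and 1206. The main peak there had 1073, 1075 and 934 bp. The centred log2 ratio was -0.29 at 4 h over 0 h and -0.54 at 12 h over 0 h.

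Fosl2 (chr5:32136472-32157840, gene ID 14284, plus strand, 21369 bp) encodes Fra-2 and had 1489, 1654 and 1479 covered bp at 0 h, 4 h and 12 h, with centred log2 ratios of 0.04 at 4 h over 0 h and 0.01 at 12 h over 0 h. All its peaks lay within the gene. Apart from a narrow first peak they lay 918 bp or more downstream of the start. The widest peak had 978 bp at 0 h and 1294 at 4 h, and in the 12 h list it was split into peaks of 778 and 478 bp. The narrow first peak, which began 327 and 314 bp from the start, measured 146 bp at 0 h and 141 bp at 4 h and was missing at 12 h.

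Atf3 (chr1:191170296-191183333, gene ID 11910, minus strand, 13038 bp) encodes a stress-induced member of the ATF group that pairs with Jun proteins and, on its own, represses. Peaks covered 508 bp of its window in the 4 h library and 512 bp at 12 h, against 332 bp at 0 h. At 0 h these were 2 peaks of 143 and 189 bp, which the later peaks joined and passed on both sides. The centred log2 ratio was 0.50 at 4 h over 0 h and 0.64 at 12 h over 0 h, short of the fold of 2 in both. With peaks at or below the 25th width percentile of each list left out, the values were 1.32 and 1.45, past it. Among all genes with a peak it was narrow, above 10.8%, 19.6% and 21.4% of them at 0 h, 4 h and 12 h.

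**Figure D3:**
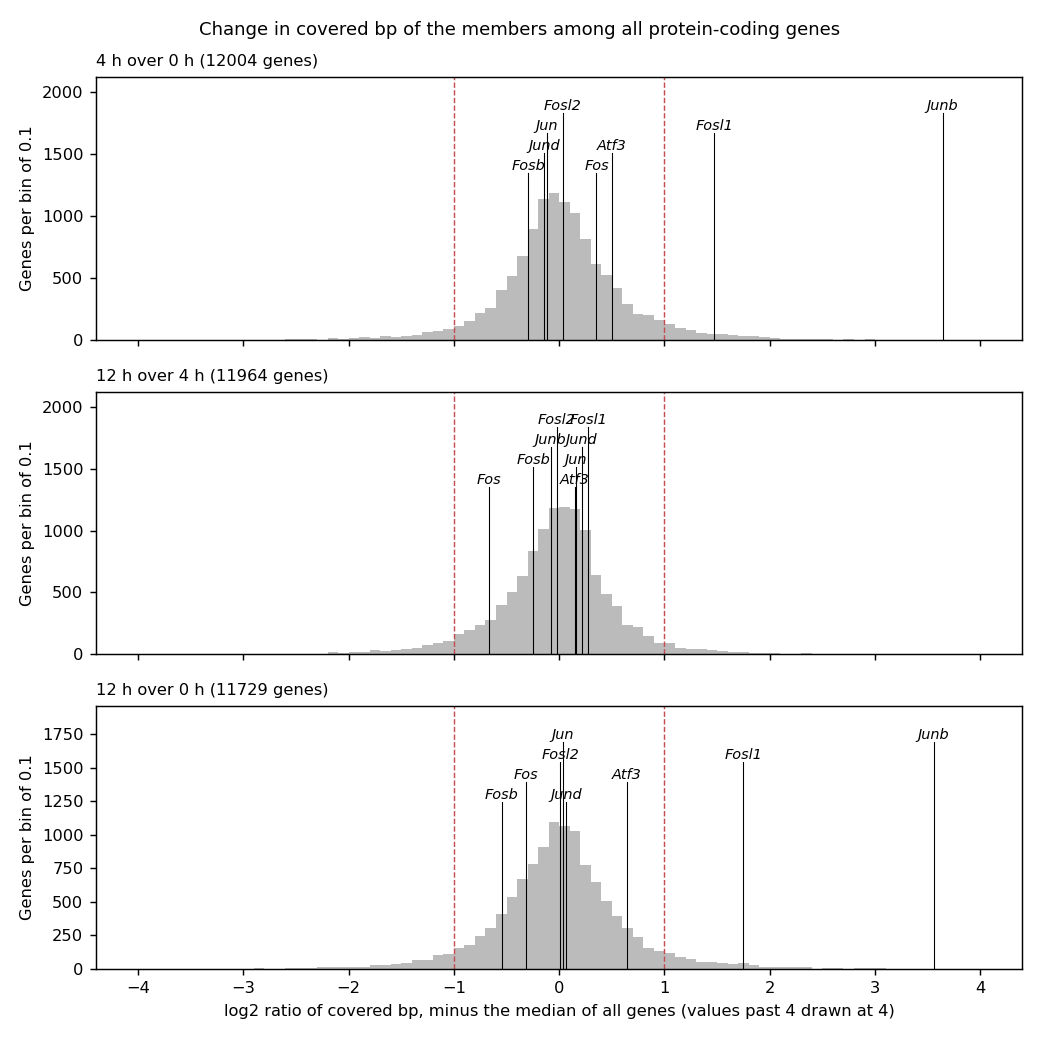
Centred log2 ratio of covered bp (horizontal axis) of all protein-coding genes covered at both times, as counts of genes in bins of 0.1 (grey), for 4 h over 0 h, 12 h over 4 h and 12 h over 0 h, with each member marked and the fold of 2 as dashed lines. Junb lies at 3.64 and Fosl1 at 1.47 at 4 h over 0 h, and all 8 members lie between the dashed lines at 12 h over 4 h.

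The 3 comparisons share libraries, so their values are not independent. How far peaks kept their place differed widely within the family. The share of bases covered at all 3 times, among those covered at any time, was 3.95% in Fosl1, 7.28% in Junb and 33.2% in Fos. In Fosl1 these bases, 44 bp, lay near Fibp, as did all its overlap with the 0 h library. Inside Fosl1 itself 0 bp were covered at 0 h. The share was 62.2% in Atf3, 64.3% in Fosl2, 66.4% in Fosb and 69.5% in Jun, where the median of 11607 genes was 48.7%. In Fosl1 and Junb the low share went with the 0 h library. Between 12 h and 4 h the Jaccard index, the shared over the joint length, was 0.885 for Fosl1 and 0.829 for Junb, where the median gene had 0.648. Between 4 h and 0 h it was 0.0425 and 0.0740, where the median gene had 0.635. These 2 genes thus differed mainly between the 0 h library and both later ones. Fos had low values in each pair, 0.452 for 4 h with 0 h, 0.554 for 12 h with 4 h and 0.456 for 12 h with 0 h.

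**Figure D4:**
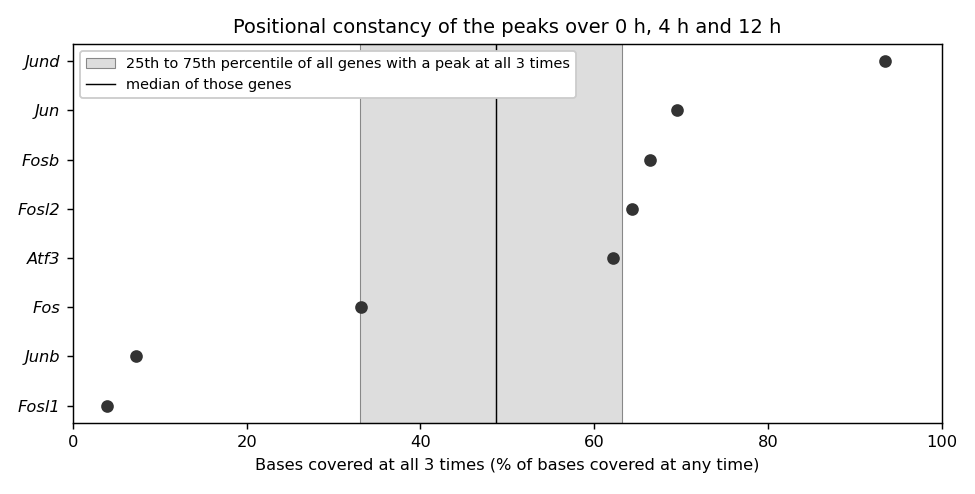
Bases covered at all 3 times as a percentage of the bases covered at any time (horizontal axis) for each member, with the median (line) and the range between the 25th and 75th percentiles (grey) of the 11607 protein-coding genes with a peak at all 3 times. Jund is highest at 93.4%, and Junb and Fosl1 are lowest at 7.28% and 3.95%. The Fosl1 value comes from peaks near the neighbouring gene Fibp.

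Most members are short genes. Their median length was 5404 bp, where that of all protein-coding genes was 17169 bp, and Fosl2 alone was longer than that. Of the covered bp in the members' windows, 82.4%, 90.2% and 94.4% lay inside the genes at 0 h, 4 h and 12 h, counting the whole of each peak. The stretch from 1000 to 2000 bp downstream of the start, chosen after the data were seen, had covered bp in 5, 6 and 6 of the 7 members with an annotated start. Of all genes with a peak near their start, 32.5%, 35.8% and 33.1% had any there. In Junb it held 136, 980 and 823 bp at 0 h, 4 h and 12 h, in Fosl2 877, 945 and 928, in Jun 634, 844 and 981 and in Fosb 500, 500 and 439. In Fos it held 0, 368 and 194 bp, and in Atf3 none. Jund had 663, 660 and 649 bp there, in a peak that does not reach its annotated start, so its part in these counts and in the average profile depends on that start.

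**Figure D5:**
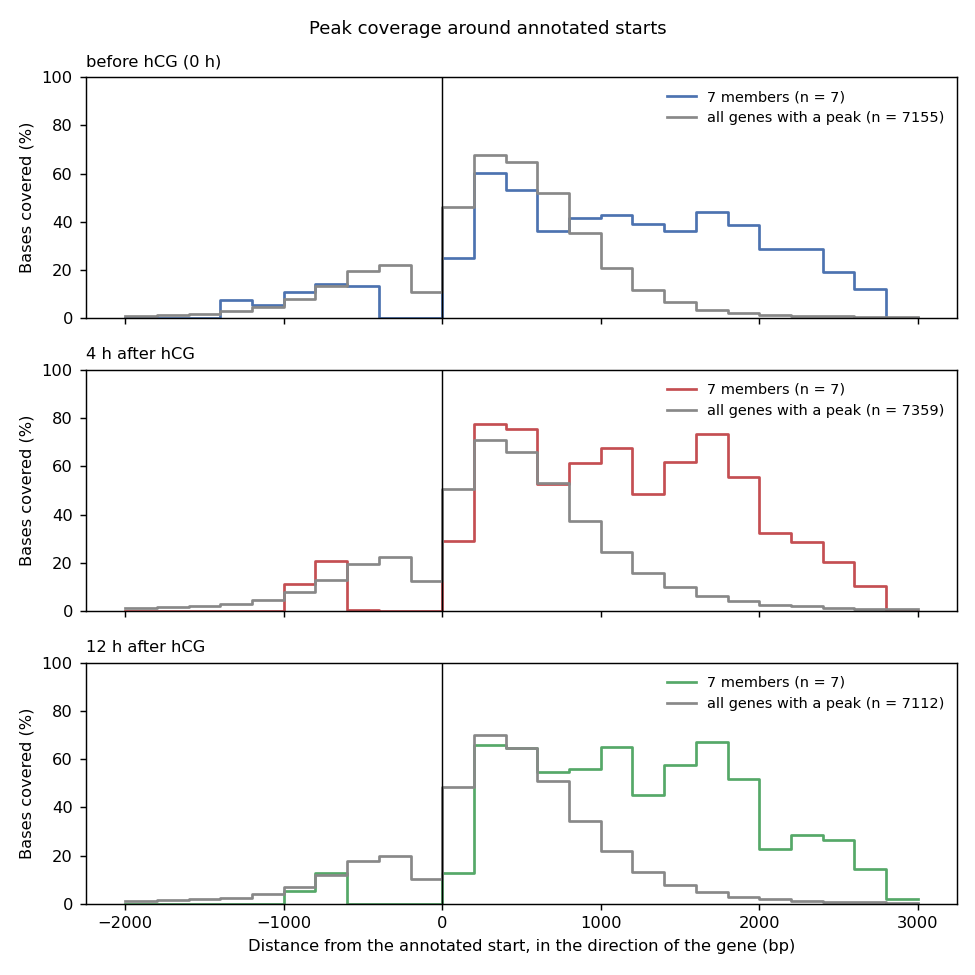
Percentage of bases covered by peaks (vertical axis) in bins of 200 bp by distance from the annotated start (horizontal axis), averaged over 7 members (colour) and over all genes with 1 annotated start and a peak near it (grey), for 0 h, 4 h and 12 h. From 1600 to 1800 bp downstream the members average 43.9%, 73.4% and 67.0%, against 3.59%, 6.24% and 4.76% for all genes. That bin holds the members' highest average beyond 1000 bp at each time, in a stretch chosen after the data were seen.

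Genes with the most similar breadth over the 3 libraries were found by the distance between values of log2(covered bp + 100). For Junb this was Rnf180, with 136, 1781 and 1581 bp (distance 0.04), and only 6 genes lay within a distance of 0.5. For Fosl1 it was Pwwp2a with 267, 810 and 951 bp, and 107 genes lay within that distance. This match used the 269 bp of the Fosl1 window at 0 h, all of it near Fibp. The other members had commoner profiles, with 328 to 1738 genes within it. Their nearest genes were Tars for Fos, Fbxw2 for Fosb, Ankmy2 for Fosl2, Wiz for Jun, Nup133 for Jund and Anapc5 for Atf3. With 3 libraries such likeness is a description of breadth alone.

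Other basic leucine zipper genes, many of them partners of the members, had changes in both directions. Of 30 such genes, 28 had a peak at 0 h or 4 h, of which 2 had more covered bp at 4 h and 2 had less, where 10.6% and 5.81% of all genes did. With a difference of 500 bp as the rule, 7 had more and 2 less, where 9.6% and 2.05% of all genes did. The median centred log2 ratio was 0.15 at 4 h over 0 h, -0.27 at 12 h over 4 h and 0.05 at 12 h over 0 h. Creb3, a membrane-bound CREB relative, had 867, 1963 and 1850 bp at 0 h, 4 h and 12 h. Cebpa, the C/EBP alpha gene, had 661, 1703 and 910 bp. Atf6b, a sensor of unfolded protein, had 960, 438 and 290 bp. In the 12 h library 1 of 27 had more and 1 had less than at 4 h, where 5.58% and 10.2% of all genes did, and by the 500 bp rule 2 had more and 8 less, where 1.99% and 8.96% did. Maf had 281, 189 and 760 bp and Creb5 640, 725 and 197 bp. Relative to 0 h, 2 of 28 had more and 3 less at 12 h, where 9.24% and 9.09% of all genes did. Of those with less, Batf3 had its only peak, of 150 bp, at 0 h.

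Of 31 genes that carry signals to the Fos and Jun promoters, 1 had more and 0 had less covered bp at 4 h over 0 h, where 10.6% and 5.81% of all genes did. This was the ribosomal S6 kinase gene Rps6ka1, with 169 bp at 4 h and 0 at 0 h. The list's median centred log2 ratio was -0.04. Relative to 4 h, 0 had more and 2 had less at 12 h, where 5.58% and 10.2% of all genes did. They were Map2k2, an ERK kinase gene, with 799, 1221 and 363 bp at 0 h, 4 h and 12 h, and Rps6ka5, a histone kinase gene, with 1117, 846 and 337 bp. Relative to 0 h, 2 had more and 2 less at 12 h, where 9.24% and 9.09% of all genes did. Among them Prkaca, the catalytic subunit gene of protein kinase A, had more, with 2215 bp at 12 h, 1007 at 0 h and 1548 at 4 h.

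Of 25 known AP-1 targets and feedback genes, 17 had a peak at 0 h or 4 h, and 8 of them had more covered bp at 4 h and 0 less, where 10.6% and 5.81% of all genes did. The 12 h library had more in 3 and less in 5 of 19 relative to 4 h, where 5.58% and 10.2% of all genes did. Relative to 0 h, 8 of 16 had more and 1 less at 12 h, where 9.24% and 9.09% of all genes did. Several of these genes were described earlier from the same libraries, so the counts are not independent evidence. The ERK phosphatase gene Dusp5 had 442, 1674 and 1387 bp at 0 h, 4 h and 12 h, and Dusp1, which acts on several MAP kinases, 378, 782 and 919 bp. Spry4, a feedback inhibitor of receptor signalling, had 196, 834 and 1185 bp. In Dusp6 the values were 983, 1547 and 560 bp, and in Areg, an EGF-like ligand gene, 0, 977 and 0 bp. Timp1, a metalloproteinase inhibitor gene, had 0, 995 and 2300 bp.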

How the data were processed

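The authors deposited a peak list per library, with chromosome, start and end in bp (unit: positions, no score). Per the submitters' processing notes, CASAVA 1.8, Bowtie2 2.2.3, MACS2 2.0.9 and mm10 were used; they do not state the threshold or whether an input was used. Per the labels, libraries had 18 PCR cycles. Starts were read as counted from 0 and are printed counted from 1. Mitochondrial peaks (5, 3 and 6 at 0 h, 4 h and 12 h) were left out. Genes come from RefSeq GRCm38.p6, without exons; strand and start come from its promoter table. Peaks overlapped at 1 bp or more. Python 3.11.15, numpy 2.4.6 and pandas 2.3.3 were used. The covering and calling code was checked on simulated added and removed peaks. That check covered calls for a peak at one time alone, and not calls by the fold of 2. All 8 members are named, with up to 6 called genes per related list by covered bp, the nearest gene per member and neighbours near a peak. Members and lists were chosen with earlier results of these data known. The TGACATCA motif, the 1000 to 2000 bp stretch and the flanks of 5 to 50 kb were chosen after the data were seen. Alternatives were windows of 2 and 10 kb, 5 kb around the marked gene end, peaks above the 25th width percentile, the widest 20669 peaks of each list, peaks within 1 kb joined, bp within 1 kb of another gene left out, a fold of 1.5, a difference of 500 bp and no centring.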

Additional observations from a re-analysis of the deposited data

How the results depend on the processing

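Of 81 recomputed counts of members 75 stayed within 1.5 times the first value. The exceptions were as follows. At 12 h over 4 h, 1 member in place of 0 had less covered bp, in each case Fos, with narrow peaks left out, with peaks within 1 kb joined, with a fold of 1.5 and with a difference of 500 bp. Of all genes 11.9%, 13.6%, 17.4% and 8.96% had less in these settings, in that order. At 12 h over 0 h, 1 member in place of 2 had more with the 10 kb window (Fosl1, with Junb at 0.88), and 1 in place of 0 had less by the difference of 500 bp (Fosb). Of all genes 8.82% had more and 5.52% had less in these settings, respectively. The cause was not tested, beyond the lower thresholds of the fold and difference settings and the wider Junb window. All 24 medians over members stayed within a factor of 1.5, between -0.08 and 0.34. In 5 settings the medians against 0 h covered 7 members, without Fosl1 in 3 of them and without Junb in 2. Those medians lack a gene with a called change, so they do not check the value for all 8 members. With each list cut to its widest 20669 peaks, which drops Junb, the median at 4 h over 0 h was -0.07. The first value was 0.19, and every other setting gave a positive one. Of 182 ratios of single members 6 moved by more than a factor of 1.5, and 0 changed sign among those called. For the related lists over all settings, 1 to 7 basic leucine zipper genes, 1 to 3 upstream genes and 5 to 9 targets had more covered bp at 4 h over 0 h, and 1 to 5, 0 to 1 and 0 to 1 had less. For 12 h over 4 h the ranges were 1 to 4, 0 to 3 and 2 to 4 with more and 1 to 8, 2 to 5 and 3 to 6 with less, and for 12 h over 0 h, 1 to 5, 1 to 5 and 5 to 8 with more and 1 to 5, 1 to 5 and 0 to 2 with less. Over the same settings, 9.6% to 17.7% of all genes had more and 2.05% to 12.0% less at 4 h over 0 h. The shares were 1.99% to 11.3% and 8.58% to 17.4% at 12 h over 4 h. They were 5.92% to 16.0% and 5.52% to 16.4% at 12 h over 0 h. No ratio against 0 h was possible for Fosl1 where its window excluded the Fibp peak (2 kb window, marked end, and bp near other genes left out), or for Junb with narrow peaks left out or equal numbers of the widest, since neither then had a 0 h peak. At 4 h over 0 h 3 members in place of 2 were called with more when narrow peaks were left out (Atf3) or peaks joined (Fos). Of all genes 11.9% and 13.1% had more in these settings. No paired analysis was possible because there was 1 library per time, and none could be left out. Unknown depth limits all breadth comparisons.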
